A study of Mus musculus with 21 samples.

Results

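The NRF2 and glutathione response genes described here are 10 genes chosen by symbol, out of 49315 gene identifiers counted in mouse epidermis. They are Nfe2l2, Keap1, Nqo1, Hmox1, Gclc, Gclm, Txnrd1, Srxn1, Slc7a11 and Gsta4. Each symbol matched 1 Ensembl identifier, and all 10 passed the filter on low counts. The series asked what Tfap2a (AP-2α) and Tfap2b (AP-2β), which encode transcription factors, do in the epidermis of mice with floxed alleles and K14Cre, a Cre recombinase driven by the keratin 14 promoter of basal keratinocytes. Total RNA of epidermal sheets was sequenced, with 3 samples in each of 7 groups. The comparison here sets K14CreTfap2afl/flTfap2bfl/fl mice at 6 months of age (double conditional knockout, cKO, called the cKO-labelled libraries below) against strain-specific controls of the same age, whose genotype is given as WT, with 3 libraries each. Strain, sex, and any alleles the controls carry were not given in the sources used here. The only other libraries with counts were 2 labelled K14CreTfap2bfl/fl (Tfap2b cKO) at 3 weeks. Of the 15 files at 3 weeks, 13 list 0 counts throughout, so the Tfap2b cKO libraries have no control of their age with counts and enter no test.

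NRF2, the product of Nfe2l2, is a transcription factor that is held at a low level by KEAP1, which hands it to a ubiquitin ligase built on CUL3. Oxidants and electrophiles modify cysteines of KEAP1, and NRF2 then builds up, pairs with a small MAF protein and binds antioxidant response elements. Its textbook targets make glutathione, keep thioredoxin reduced, and detoxify quinones, haem and lipid aldehydes. In skin, the pathway is known for protecting keratinocytes from ultraviolet light and reactive chemicals.

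The promoters of the regulator, of its inhibitor and of 2 enzymes are shown as examples, because NRF2 acts through short promoter elements. RefSeq start sites (GRCm38.p6) were available for 7 of the 10 genes, in 9 windows of 250 bases upstream of a start. Both strands were searched for the core of the antioxidant response element, spelled TGACNNNGC or TGAGNNNGC, for the AP-1 site TGACTCA and for GCCNNNGGC, a form of the AP-2 site. Capitals mark every match, and the letters run 5′ to 3′ along the gene.
Nfe2l2, chr2:75704664-75704913, minus strand: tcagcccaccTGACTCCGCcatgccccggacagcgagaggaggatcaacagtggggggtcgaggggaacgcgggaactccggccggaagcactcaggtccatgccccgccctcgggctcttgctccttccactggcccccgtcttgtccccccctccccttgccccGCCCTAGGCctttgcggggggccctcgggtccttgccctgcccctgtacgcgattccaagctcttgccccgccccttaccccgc
Keap1, chr9:21239333-21239582, minus strand: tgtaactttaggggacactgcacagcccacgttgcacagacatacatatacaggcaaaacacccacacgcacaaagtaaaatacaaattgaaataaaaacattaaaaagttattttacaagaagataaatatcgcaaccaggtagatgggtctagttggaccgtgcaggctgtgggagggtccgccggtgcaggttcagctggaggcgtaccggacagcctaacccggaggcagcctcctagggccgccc
Txnrd1, chr10:82858956-82859205, plus strand: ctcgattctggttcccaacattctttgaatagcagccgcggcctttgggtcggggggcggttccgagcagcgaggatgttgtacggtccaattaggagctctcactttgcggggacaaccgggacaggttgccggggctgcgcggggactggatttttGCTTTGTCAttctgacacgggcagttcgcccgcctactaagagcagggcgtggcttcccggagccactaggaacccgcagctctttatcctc
Srxn1, chr2:152105274-152105523, plus strand: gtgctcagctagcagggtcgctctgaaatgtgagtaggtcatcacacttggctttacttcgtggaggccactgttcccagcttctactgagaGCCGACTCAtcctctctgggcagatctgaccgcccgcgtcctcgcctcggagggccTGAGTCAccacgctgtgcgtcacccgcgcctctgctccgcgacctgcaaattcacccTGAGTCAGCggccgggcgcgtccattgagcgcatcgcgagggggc

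The Nfe2l2 window held 1 antioxidant element core, 240 to 232 bases upstream of the start, and 1 AP-2 match, 84 to 76 bases upstream. The Keap1 window held none of these motifs. For Txnrd1, which has 3 windows, the one shown, the second, held 1 antioxidant element core, 92 to 84 bases upstream. The first window of Txnrd1 held 1 AP-2 match, GCCTAGGGC, 148 to 140 bases upstream, and the third held none of these motifs. Srxn1 was the only one of the 7 genes with AP-1 matches: it held 2, and the one nearer the start, TGAGTCAGC, is an antioxidant element core and an AP-1 match at once. Among the genes not shown, the Nqo1 window held none of these motifs. The Gclm window held 1 antioxidant element core and 1 AP-2 match, and the Slc7a11 window 1 antioxidant element core. In all, 5 of the 9 windows held an antioxidant element core and 3 held the AP-2 form, while 23.0% and 13.7% of 32851 windows of all genes did, and 4.46% held the AP-1 site. A match is a description of these letters and not a site shown to be bound.

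The 6 libraries at 6 months held 11318181 to 17746284 counts, and the 2 labelled Tfap2b cKO lay within this range. Keratinocyte markers were high in all 8 libraries, with 8224 to 18754 CPM (a gene's count scaled to a library total of 1000000) summed over 7 basal genes and 10442 to 15453 CPM over 5 suprabasal genes. The targeted genes did not show the deletion. Tfap2a measured 165, 140.3 and 210.1 CPM among control replicates 1 to 3, against 229, 213 and 309 CPM among the cKO-labelled libraries (log2 fold change 0.47, edgeR adjusted p 0.118). It passed as higher, against the label, in 2 of 17 alternatives: without a filter on low counts (0.57, edgeR adjusted p 0.0204) and without control replicate 3 (0.72, edgeR adjusted p 0.0160). Tfap2b held 57.3, 86.6 and 71.03 against 53.8, 57.2 and 56.9 CPM (-0.43, edgeR adjusted p 0.111). Counts over a whole gene also take in exons outside a deletion, so directions below are those of the libraries by their labels. Control replicates 1 and 2 held 1.61 and 3.19 counts per exonic kb in odorant and vomeronasal receptor genes, a measure of background, against 0.0970 to 0.195 in the other 6 libraries. Control replicate 3 also stood apart from the other 2 controls: its Spearman correlations across the genes tested, which are not independent replicates, were 0.942 and 0.947 with them and 0.944 to 0.951 with the cKO-labelled libraries, while control replicates 1 and 2 reached 0.903 to 0.917 with the latter. Without control replicate 3, 7544 genes passed the threshold in place of 2637, and the same 4 of the 10 genes described here passed. The labels do not say that replicates are separate animals, so p-values measure only the spread between these samples. In bulk tissue, fewer cells of a type and less RNA per cell cannot be told apart.

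Of the 10 genes at 6 months, 4 passed an adjusted p of 0.05, Keap1 and Gsta4 as rises and Txnrd1 and Hmox1 as falls. Across all 17755 genes tested 14.9% passed, 6.26% (1111 genes) as rises and 8.59% (1526) as falls. With scaling by total counts alone these were 1376 and 1327 genes, and the same 4 of the 10 passed in the same directions. The groups did not overlap for 7 of the 10 genes, against 38.7% of all genes tested. The median log2 fold change of the 10 was 0.27, against -0.035 for all genes tested. Fold changes are given on the log2 scale as double cKO minus control, with the standard error (SE), from edgeR's quasi-likelihood test, and its p-values were adjusted by Benjamini-Hochberg over the whole table. Txnrd1 and Gsta4 passed the threshold under each of the 17 alternatives run, which include 6 fits that each left out 1 library, and Keap1 and Hmox1 did not.

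**Figure D1:**
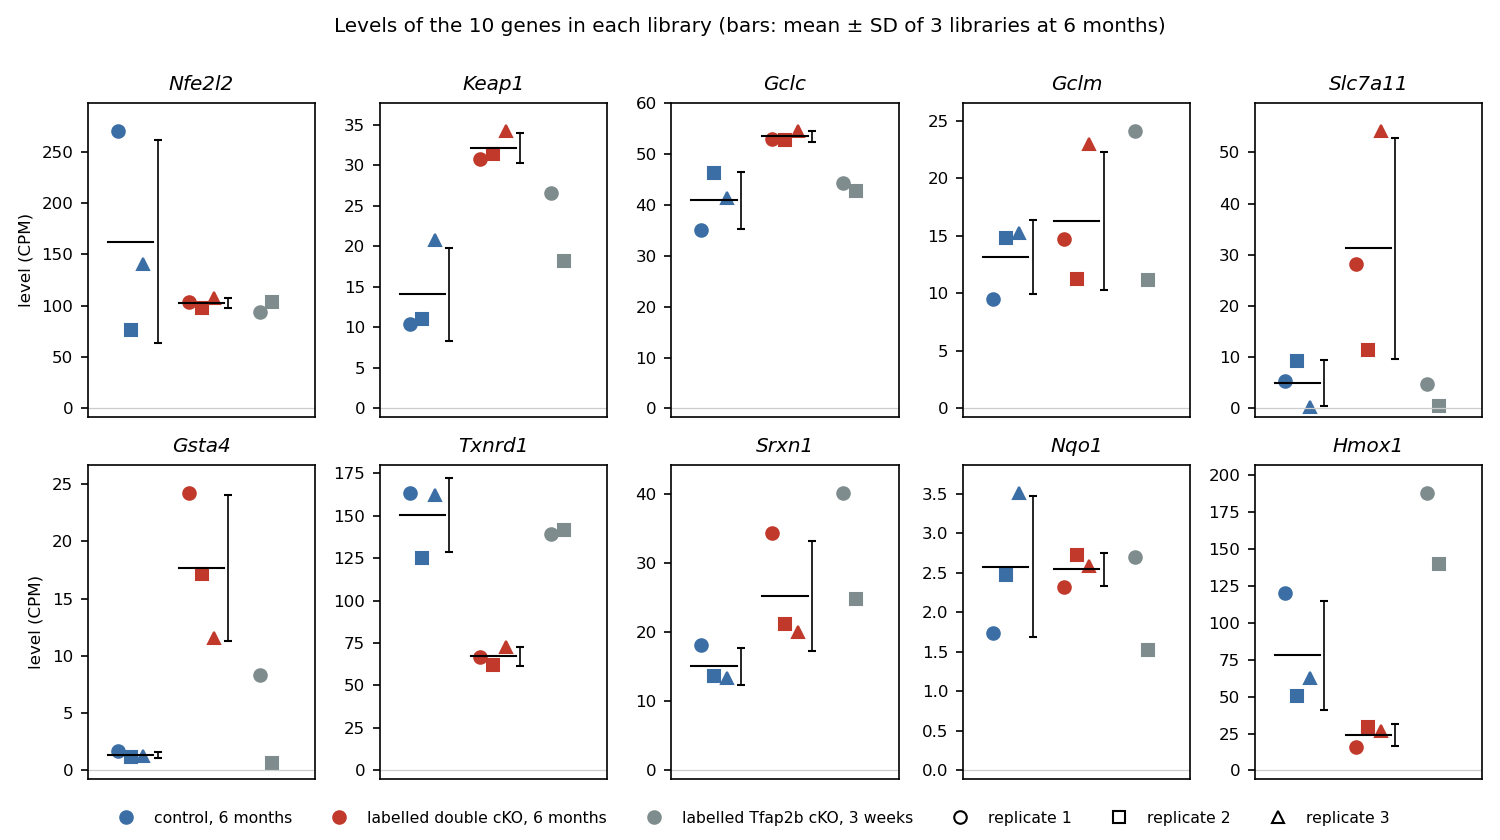
Levels in CPM (linear axes) of the 10 genes in each library: controls at 6 months, cKO-labelled libraries at 6 months and libraries labelled Tfap2b cKO at 3 weeks, with symbols for replicates and, at 6 months, the mean ± SD of 3 libraries. The controls of Gsta4 sit between 1.15 and 1.66 CPM and the cKO-labelled libraries between 11.6 and 24.3, while Nfe2l2 spreads from 75.9 to 271 CPM among the controls alone.

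Nfe2l2, the regulator, did not pass the threshold, and Keap1, its inhibitor, rose. Nfe2l2 (ENSMUSG00000015839, chromosome 2, 75675513 to 75704641, minus strand, GRCm38) measured 271, 75.9 and 140.7 CPM among control replicates 1 to 3, against 103, 97.6 and 108 CPM among the cKO-labelled libraries. The controls span a wide range on both sides of the other group, whose 3 values lie close together. The log2 fold change was -0.74 (SE 0.41, adjusted p in edgeR 0.260), with a 95% interval from -1.70 to 0.22, which covers both a fall and a small rise. Control replicates decided its size: without control replicate 1 it was -0.14, and without control replicate 2 it was -1.08 and passed the threshold (edgeR adjusted p 0.0476).

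Keap1 (ENSMUSG00000003308, chromosome 9, 21229730 to 21239361, minus strand) measured 10.5, 11.04 and 20.7 CPM among control replicates 1 to 3, against 30.7, 31.4 and 34.3 CPM among the cKO-labelled libraries. Every cKO-labelled library lay above every control, and control replicate 3 was the nearest to them. The mean was 2.28 times that of the controls, with a log2 fold change of 1.11 (SE 0.26, adjusted p in edgeR 0.0222). The call was lost in 5 of the 6 fits that left out 1 library: without control replicate 1 (0.94) or 2 (0.97), and without replicate 1 (1.18), 2 (1.15) or 3 (1.08) of the cKO-labelled libraries, at edgeR adjusted p of 0.0609 to 0.0814. Without control replicate 3 the log2 fold change was 1.57. Gm16754, an antisense gene that overlaps exons of Keap1 on the other strand, rose as well, from 1.32 ± 0.509 to 4.06 ± 0.479 CPM (log2 fold change 1.45, adjusted p 0.0431 in edgeR, SD, n = 3 each), a call lost in the same 5 fits. The strand setting of the counting was not stated, so reads of the pair cannot be told apart. The ratio of Nfe2l2 to Keap1 per exonic length was 32.0, 8.496 and 8.401 in the controls and 4.16, 3.85 and 3.89 in the cKO-labelled libraries, so the transcript of the activator was the more abundant in every library and the ratios of the groups did not overlap.

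The first step of glutathione synthesis is carried out by glutamate-cysteine ligase, of which Gclc encodes the catalytic and Gclm the modifier subunit. It uses cysteine, which SLC7A11 imports as cystine. None of these 3 genes passed the threshold in edgeR, DESeq2 or limma-voom, and none had an unadjusted edgeR p under 0.05. Gclc (ENSMUSG00000032350, chromosome 9, 77754535 to 77794485, plus strand) measured 35.1, 46.3 and 41.4 CPM among control replicates 1 to 3, against 53.1, 52.8 and 54.7 CPM among the cKO-labelled libraries. The groups did not overlap, yet the difference was small: log2 fold change 0.31 (SE 0.15, adjusted p in edgeR 0.192), 95% interval -0.031 to 0.65. Gclm (ENSMUSG00000028124, chromosome 3, 122245557 to 122270732, plus strand) held 9.47, 14.8 and 15.2 against 14.7, 11.2 and 22.9 CPM, and the groups overlapped (log2 fold change 0.24, SE 0.30, edgeR adjusted p 0.614). Without replicate 3 of the cKO-labelled libraries, the highest for Gclm, the value was -0.066. Exons of Gclm overlap those of Gm17494, which had at most 56 counts, on the other strand and those of Gm6061, which had 0 counts in all 8 libraries, on the same strand. The ratio of Gclc to Gclm per exonic length ran from 4.54 to 6.20 in the controls and from 3.98 to 7.84 in the cKO-labelled libraries.

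Slc7a11 (ENSMUSG00000027737, chromosome 3, 49892526 to 50443614, minus strand) had the largest SE of the 10. It measured 5.40, 9.19 and 0.326 CPM among control replicates 1 to 3, against 28.2, 11.5 and 54.3 CPM among the cKO-labelled libraries. All 3 of the latter were higher than every control, and they ranged from 11.5 to 54.3 CPM among themselves. Its log2 fold change was 2.57 (SE 1.08, adjusted p in edgeR 0.165), with a 95% interval from -0.078 to 5.29. The exons of Slc7a11 add up to 13922 bases, and the receptor-gene background for that length came to 22.4 and 44.4 of the 65 and 104 counts in control replicates 1 and 2. In control replicate 3 it was 2.05 of 5 counts. With this background subtracted the log2 fold change was 3.17, still not past the threshold (edgeR adjusted p 0.0829). Melanocytes and activated myeloid cells are known to use this transporter. The 7 melanocyte markers, none of them at 0 in all libraries, summed to 40.03 to 82.3 CPM in the controls and 29.5 to 57.5 CPM in the cKO-labelled libraries, and none of the 5 tested passed the threshold in edgeR, with 1 at an unadjusted p under 0.05 and 1 past the threshold in DESeq2. The 6 neutrophil markers, none of them at 0 in all libraries, summed to 0.456 to 5.12 CPM in the controls and 25.6 to 46.1 CPM in the cKO-labelled libraries. Only 1 of the 6, Cxcr2 (named after its values were seen), passed the filter on low counts, and only through the cKO-labelled libraries. It held 3 to 6 counts in each control and 416 to 634 counts in each cKO-labelled library. Given the few control counts, no fold is given. Its calls in edgeR, DESeq2 and limma-voom rest on these same counts and add no support. The defining markers Mpo and Elane were at 0 counts in all 3 cKO-labelled libraries, Ly6g at 0 or 1, and Camp and Retnlg at 0 to 4, so the sum there is nearly all Cxcr2. The part of melanocytes in the Slc7a11 values was not tested.

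Gsta4, an alpha-class glutathione S-transferase that conjugates the lipid peroxidation product 4-hydroxynonenal, had the largest log2 fold change of the 10 genes. Gsta4 (ENSMUSG00000032348, chromosome 9, 78182774 to 78209349, plus strand) measured 1.66, 1.15 and 1.302 CPM among control replicates 1 to 3, on 13 to 20 counts each, against 24.3, 17.2 and 11.6 CPM among the cKO-labelled libraries, on 206 to 335 counts. The mean rose 12.9 times, from 1.37 ± 0.263 to 17.7 ± 6.34 CPM (SD, n = 3 each). The log2 fold change was 3.48 (SE 0.35, adjusted p in edgeR 0.000527), and it ran from 3.24 to 3.74 over the 17 alternatives. Gsta2, of the same class, fell from 11.2 ± 3.22 to 3.61 ± 1.77 CPM (log2 fold change -1.67, adjusted p 0.0190 in edgeR, n = 3 each), a call lost without control replicate 2 (-1.45) and without replicate 1 (-1.44) or 3 (-1.46) of the cKO-labelled libraries. As a share of the CPM of Gsta1 to Gsta4, Gsta4 made up 13.5%, 5.94% and 9.66% in the controls and 84.8%, 72.8% and 76.01% in the cKO-labelled libraries. Close paralogs of the family can share reads.

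Summed markers of basal keratinocytes, of wound and stress keratinocytes and of proliferation were higher in the same libraries as Gsta4. The 7 basal genes summed to 8224 to 10485 CPM in the controls and 15753 to 18754 CPM in the cKO-labelled libraries, and 5 of 7 rose. Krt15 of this list went the other way. It held 728, 1164 and 1187 CPM among control replicates 1 to 3, against 234, 673 and 330 CPM among the cKO-labelled libraries, and did not pass the threshold. The 7 wound and stress genes summed to 465 to 723 CPM and 3487 to 4593 CPM, and 4 of 7 rose. The sebaceous list summed to 1154 to 1341 CPM in the controls and 575 to 629.9 CPM in the cKO-labelled libraries, and 2 of the 6 genes tested fell. None of the 6 was fitted higher, but most of the difference in the sum was Scd1. Scd1 held 718, 848 and 775 CPM among control replicates 1 to 3, against 186, 224 and 168 CPM among the cKO-labelled libraries. Fasn was nearly level, at 402, 415 and 388 against 353, 383 and 378 CPM. The 7 proliferation genes summed to 146 to 233 CPM and 366 to 495 CPM, and 5 of 7 rose. Pcna, of the proliferation list, did not rise, and its groups overlapped. It held 47.5, 26.9 and 38.5 CPM among control replicates 1 to 3, against 29.6, 39.3 and 25.9 CPM among the cKO-labelled libraries. No marker of these 4 lists was at 0 in all libraries, and their part in the Gsta4 values was not tested.

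Txnrd1, the cytosolic selenoenzyme that reduces thioredoxin, fell by more than its controls varied. Txnrd1 (ENSMUSG00000020250, chromosome 10, 82859206 to 82897724, plus strand) measured 163, 125 and 162 CPM among control replicates 1 to 3, against 66.8, 61.8 and 72.9 CPM among the cKO-labelled libraries. The control mean was 2.24 times the other, at 150.2 ± 21.6 against 67.2 ± 5.55 CPM (SD, n = 3 each). Its log2 fold change was -1.23 (SE 0.15, adjusted p in edgeR 0.00148), and it ran from -1.35 to -1.10 over the alternatives. Its substrate went the other way: Txn1, which encodes cytosolic thioredoxin, rose from 25.7 ± 10.8 to 55.97 ± 6.83 CPM (log2 fold change 1.04, adjusted p 0.0329 in edgeR, n = 3 each). The Txn1 call was lost without control replicate 1 (0.92) and without any 1 of the cKO-labelled libraries (0.98 to 1.16). Per exonic length, the ratio of Txnrd1 to Txn1 was 2.41, 1.01 and 2.72 in the controls and 0.3801, 0.378 and 0.353 in the cKO-labelled libraries.

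Srxn1 (ENSMUSG00000032802, chromosome 2, 152105516 to 152111376, plus strand) encodes sulfiredoxin, which restores over-oxidised peroxiredoxins. It measured 18.1, 13.7 and 13.4 CPM among control replicates 1 to 3, against 34.4, 21.2 and 20.1 CPM among the cKO-labelled libraries. All 3 of the latter lay above the controls, replicate 1 well above and the other 2 just above. The log2 fold change was 0.66 (SE 0.25, adjusted p in edgeR 0.0996), with a 95% interval from 0.11 to 1.22. The interval is of the single gene, without adjustment for the number of genes tested. Srxn1 passed the threshold in 1 alternative, that without a filter on low counts (0.77, edgeR adjusted p 0.0200).

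Nqo1, the quinone reductase most often used as a readout of NRF2, was low and did not pass the threshold. Nqo1 (ENSMUSG00000003849, chromosome 8, 107388225 to 107403206, minus strand) measured 1.74, 2.47 and 3.52 CPM among control replicates 1 to 3, 21 to 54 counts, against 2.32, 2.73 and 2.59 CPM among the cKO-labelled libraries, 32 to 46 counts. The cKO-labelled libraries lay inside the range of the controls. Its log2 fold change was -0.088 (SE 0.43, adjusted p in edgeR 0.900), and the 95% interval from -1.05 to 0.86 leaves room for a change of either sign at this depth.

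Hmox1 encodes haem oxygenase 1, which breaks haem down to biliverdin, iron and carbon monoxide, and it fell. Hmox1 (ENSMUSG00000005413, chromosome 8, 75093621 to 75100589, plus strand) measured 120.3, 50.6 and 62.9 CPM among control replicates 1 to 3, against 15.6, 29.7 and 26.9 CPM among the cKO-labelled libraries. The groups did not overlap, and control replicate 1 held about as much as the other 2 controls together. The log2 fold change was -1.76 (SE 0.37, adjusted p in edgeR 0.0182). Leaving out replicate 1 of the cKO-labelled libraries, the lowest, ended the call (-1.48, edgeR adjusted p 0.0602). Without control replicate 1 the value was -1.29 and still past the threshold. Macrophages are a known source of Hmox1. The 8 markers of Langerhans cells and macrophages, none of them at 0 in all libraries, summed to 429 to 539.7 CPM in the controls and 393 to 557 CPM in the cKO-labelled libraries, and none of the 7 tested passed the threshold in edgeR or DESeq2, with 2 at an unadjusted p under 0.05. Dermal fibroblast markers summed to 52.98 to 157 CPM in the controls and 11.7 to 23.05 CPM in the cKO-labelled libraries, 3 of 6 fell, and none was at 0 in all libraries. The part of either cell type in the Hmox1 values was not tested.

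**Figure D2:**
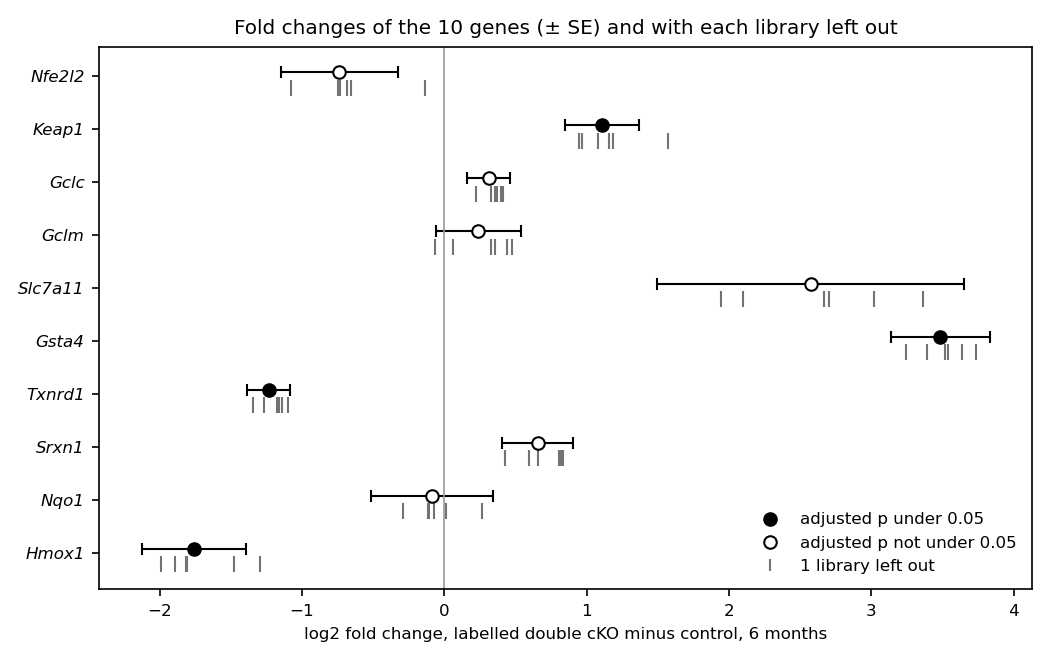
Log2 fold changes of the 10 genes, cKO-labelled libraries minus controls at 6 months: points with the SE (filled where the adjusted p was under 0.05) and grey ticks for the 6 fits that each left out 1 library. Gsta4 lies at 3.48 and Txnrd1 at -1.23 with their ticks close by, and the ticks of Nfe2l2 run from -1.08 to -0.14.

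Per exonic length, which allows genes to be compared with one another, the controls had 3 abundant transcripts. Hmox1, Txnrd1 and Nfe2l2 held 44.5 ± 21.2, 43.96 ± 6.32 and 42.8 ± 26.1 CPM per exonic kb (SD, n = 3), and these 3 were not separated by their spread. Gclc followed at 10.9 ± 1.49, then Srxn1 at 5.34 ± 0.933, each below every control library of the gene above it. Keap1, Gclm, Nqo1 and Gsta4 came next at 2.998 ± 1.23, 2.09 ± 0.509, 1.66 ± 0.573 and 1.08 ± 0.208, with neighbours that overlapped. Slc7a11 was last at 0.357 ± 0.319 CPM per exonic kb.

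The order differed in the cKO-labelled libraries. Nfe2l2 was first at 27.1 ± 1.34 CPM per exonic kb and Txnrd1 second at 19.7 ± 1.62, with no overlap between them. Gclc (14.2 ± 0.269), Gsta4 (13.97 ± 5.01) and Hmox1 (13.8 ± 4.26) followed as neighbours that overlapped. Gsta4 thus went from the 9th to the 4th place of the 10, and from percentile 22.3 to percentile 80.2 of all genes tested by this measure. Srxn1, Keap1, Gclm and Slc7a11 held 8.94 ± 2.83, 6.84 ± 0.403, 2.59 ± 0.954 and 2.25 ± 1.55, and Nqo1 was last at 1.64 ± 0.134.

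**Figure D3:**
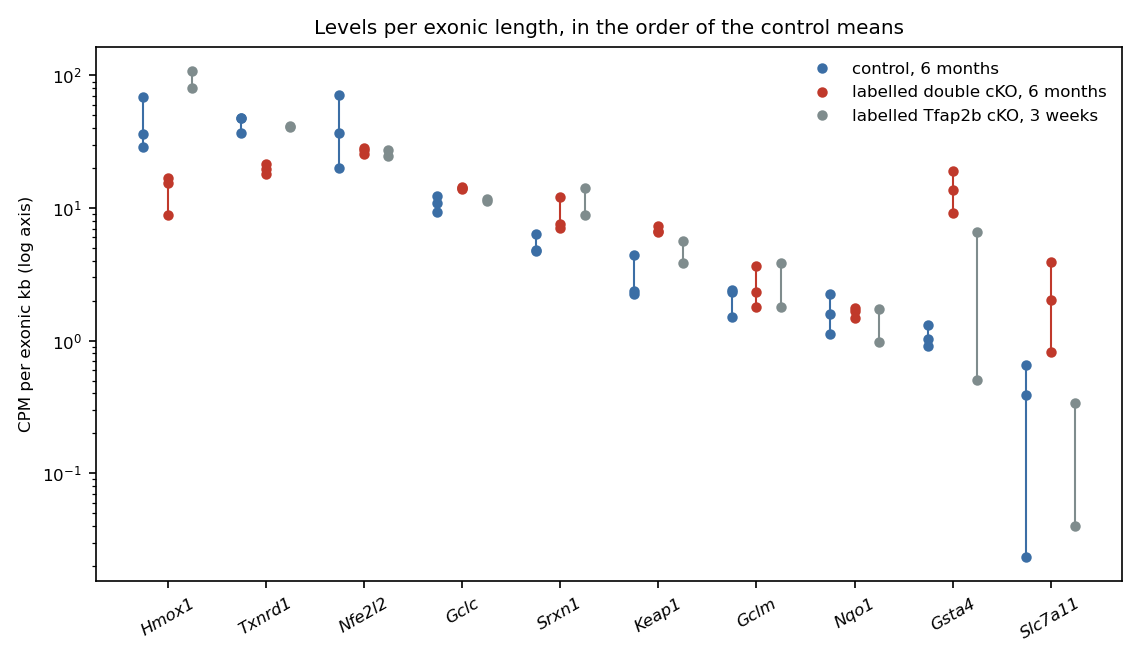
Levels in CPM per exonic kb (log axis) of the 10 genes, ordered by their control means, in controls and cKO-labelled libraries at 6 months and in libraries labelled Tfap2b cKO at 3 weeks. Each point is 1 library and lines span the range of a group. The group ranges at 6 months overlap for Nfe2l2, Gclm and Nqo1 and are apart for the other 7.

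In the 2 libraries labelled Tfap2b cKO at 3 weeks, Hmox1 held 188 and 139.7 CPM, above all 6 libraries at 6 months, and Srxn1 held 40.2 and 24.8 CPM, above all controls at 6 months. Txnrd1 (139.3 and 142 CPM), Nfe2l2 (94.3 and 104 CPM) and Gclc (44.2 and 42.8 CPM) were alike in both libraries and within the range of the controls at 6 months. Keap1 held 26.6 and 18.1 CPM, Gclm 24.1 and 11.2 CPM and Nqo1 2.70 and 1.52 CPM. Gsta4 was at 8.33 CPM in replicate 1 and 0.639 CPM in replicate 2, and Slc7a11 at 4.70 and 0.559 CPM. Replicate 1 of this group stood apart in markers of other cells. It held 2556 CPM summed over 6 dermal fibroblast genes, 712 over 4 adipocyte genes and 14430 over 8 sebaceous genes, where replicate 2 held 17.3, 0.240 and 982 CPM. The part of these cells in the higher values of replicate 1 was not tested.

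The genes whose levels followed those of Nfe2l2 and Nqo1 most closely over the 8 libraries were sought by the root mean square difference of their centred log2(CPM + 1) levels, among 16488 genes. For Nfe2l2 the nearest were Gm24996, Gm43848, Snora28, Tbc1d12 and Cd160, at differences of 0.191 to 0.216, against a median of 0.654 over all genes and 0.516 for a flat profile. For Nqo1 they were Zfand2b, Klhl5, Josd1, Gm42600 and Slc35a1, at 0.0901 to 0.119, against a median of 0.434 and 0.248 for a flat profile. None of these 10 genes is a member of the pathway lists below. None passed the threshold at 6 months.

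Among the other genes of the pathway, taken from 8 lists named by function and leaving out the 10 genes above, 90 were tested, and 23 (25.6%) passed the threshold, 8 as rises and 15 as falls. Over all genes tested the shares were 14.9% in either direction, 6.26% as rises and 8.59% as falls, and the counts of each list below are to be read against these. With 1 library left out, the share of all genes tested moved too. It was 7.55%, 6.65% and 35.9% without control replicates 1, 2 and 3. Without replicates 1, 2 and 3 of the cKO-labelled libraries it was 3.15%, 4.95% and 6.44%. List counts of those fits are to be read against these shares. The median log2 fold change of the 90 was 0.0055, against -0.035 for all genes tested. The lists were chosen with earlier results of these data known, so their counts are descriptions. A 9th list, of the amino acid stress pathway of ATF4, was added because that pathway also drives Slc7a11.

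Among the regulators and partners of NRF2, 4 of the 14 genes, all tested, fell and 1, Keap1, rose. Mafk, a small MAF partner of NRF2, fell from 112 ± 12.6 to 47.05 ± 1.37 CPM (log2 fold change -1.32, adjusted p 0.000875 in edgeR, SD, n = 3 each) and passed the threshold in all 17 alternatives. Its exons overlap those of Tmem184a on the other strand. Sqstm1, which encodes p62, an autophagy receptor that binds KEAP1, fell from 192 ± 3.60 to 94.7 ± 17.7 CPM (-1.09, adjusted p 0.00301 in edgeR, n = 3 each), in 16 of 17 alternatives. Maff (-1.16) and Bach2 (-1.07) fell too, in 13 and 11 of 17. The ligase scaffold Cul3, the competing repressor Bach1 and the related factor Nfe2l1 had control means of 256, 200.2 and 293 CPM and means of 211, 211 and 317 CPM in the cKO-labelled libraries and did not pass, nor did the kinase gene Gsk3b (453 and 347 CPM). Exons of Sqstm1 overlap Mrnip and those of Bach2 overlap Bach2os on the other strand. The count of 5 fell to 3 without control replicate 2 or replicate 3 of the cKO-labelled libraries, and to 2 without replicate 1 or 2 of the latter.

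In glutathione supply and recycling, 1 of 13 genes tested passed in edgeR, 3 did in DESeq2 and none did in limma-voom. The gene was Chac1, which degrades glutathione. Chac1 fell from 8.55 ± 3.88 to 2.83 ± 1.01 CPM (log2 fold change -1.62, adjusted p 0.0345 in edgeR, n = 3 each). The Chac1 call was kept in 9 of 17 alternatives, and among the fits that left out 1 library only in that without control replicate 3, where the list held 4 calls. Slc3a2, the partner chain of SLC7A11, held 107 and 89.9 CPM, and Ggct, of the glutathione cycle, 122 and 157 CPM, and neither passed. Of 5 peroxidases tested, Gpx4, which reduces lipid hydroperoxides, fell from 13.3 ± 2.39 to 6.07 ± 2.12 CPM (-1.18, adjusted p 0.0279 in edgeR, n = 3 each), a call lost without control replicate 2 and without replicate 1 or 2 of the cKO-labelled libraries. Gpx1 held 104 and 114 CPM and did not pass.

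The glutathione S-transferases were mixed. Of 18 tested, 3 rose and 2 fell. Besides Gsta4, Mgst2 rose from 8.90 ± 2.53 to 25.4 ± 7.32 CPM (log2 fold change 1.43, adjusted p 0.0116 in edgeR, n = 3 each), lost without control replicate 2, and Gsto1 from 40.7 ± 3.10 to 65.6 ± 12.3 CPM (0.61, edgeR adjusted p 0.0427), kept in 7 of 17 alternatives. Besides Gsta2, Gstm5 fell from 18.2 ± 1.01 to 9.49 ± 1.06 CPM (-0.998, edgeR adjusted p 0.0123), lost without replicate 1 or 2 of the cKO-labelled libraries. Exons of Gstm5 overlap 4933431E20Rik on the other strand. The count of 5 was 9 without control replicate 3, where 35.9% of all genes tested passed. It was 2 without control replicate 2 and 3 without any 1 of the cKO-labelled libraries.

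In the thioredoxin and peroxiredoxin list, 3 of 15 genes tested rose and only Txnrd1 fell. Besides Txn1, Glrx, which encodes glutaredoxin, rose from 19.8 ± 4.16 to 37.2 ± 5.66 CPM (log2 fold change 0.83, adjusted p 0.0297 in edgeR, n = 3 each), and Prdx3, of mitochondria, from 5.76 ± 1.40 to 11.9 ± 2.08 CPM (0.95, edgeR adjusted p 0.0403). These calls held in 12 and 8 of 17 alternatives. Txnip, an inhibitor of thioredoxin, and the peroxiredoxins Prdx1, Prdx2 and Prdx6 had control means of 373, 165, 127 and 134 CPM and means of 617, 176, 94.9 and 114 CPM in the cKO-labelled libraries, and none passed in edgeR. Txnip (log2 fold change 0.65, edgeR adjusted p 0.108) passed as higher in 4 of 17 alternatives: DESeq2, no filter on low counts, the replicate block and the fit without replicate 3 of the cKO-labelled libraries. Prdx2 (-0.50, edgeR adjusted p 0.0739) passed as lower in DESeq2 and without replicate 2 of these libraries. Of this list, 6 genes passed in DESeq2 and 3 in limma-voom. Exons of Txnip overlap Gm15441, and those of Prdx2 overlap Junb and Rnaseh2a, on the other strand. Without replicate 1 of the cKO-labelled libraries the list held 1 call in place of 4, and 2 without any other library but control replicate 3.

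The targets that handle quinones, carbonyls, haem and iron held 9 calls among 24 tested, 7 falls and 2 rises. Akr1b8, an aldo-keto reductase, rose from 8.77 ± 2.54 to 48.7 ± 12.4 CPM (log2 fold change 2.39, adjusted p 0.000991 in edgeR, n = 3 each) and passed in all 17 alternatives. Aldh3a1, an aldehyde dehydrogenase, rose from 17.6 ± 2.92 to 31.5 ± 5.54 CPM (0.76, edgeR adjusted p 0.0368), in 9 of 17. Slc40a1, the iron exporter ferroportin, fell from 36.1 ± 0.552 to 13.5 ± 4.74 CPM (-1.48, edgeR adjusted p 0.00608) in all 17. Cbr1 (-1.04) and Ptgr1 (-1.02), which reduce carbonyls and reactive alkenes, fell in 14 and 13 of 17. Abcc2, an exporter of glutathione conjugates, was at 0.217, 0.136 and 0 CPM in the cKO-labelled libraries, at most 3 counts each, against 2.66, 7.16 and 0.716 CPM in the controls (edgeR adjusted p 0.0192). Given the few counts, no fold is given. The exons of Abcc2 add up to 8532 bases, and control replicates 1 and 2 held a receptor-gene background of 1.61 and 3.19 counts per exonic kb. Their Abcc2 values above are not corrected for this background. Abcc2 passed the filter on low counts through the controls alone. Its call was kept in 11 of the 15 alternatives that hold a value for it. These refit the same counts and add no support to the call. The call was lost without control replicate 2 or replicate 1 or 2 of the cKO-labelled libraries. The ferritin chain Fth1 and the exporters Abcc1 and Abcc4 had control means of 241, 324 and 75.6 CPM and means of 291, 346 and 100.2 CPM in the cKO-labelled libraries, and none passed. The count of 9 was 4 without control replicate 2, 2 without replicate 1 and 5 without replicate 3 of the cKO-labelled libraries.

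Of the 7 genes tested that supply NADPH to these enzymes, Me1, malic enzyme, fell from 219 ± 15.4 to 83.4 ± 29.3 CPM (log2 fold change -1.47, adjusted p 0.00441 in edgeR, n = 3 each), in all 17 alternatives. Its exons overlap A330041J22Rik on the other strand. Taldo1, of the pentose phosphate pathway, rose from 27.9 ± 1.002 to 42.1 ± 1.41 CPM (0.51, edgeR adjusted p 0.0435), in 8 of 17, and was lost in each fit that left out 1 library except that without control replicate 3. Me1 also serves lipid synthesis in sebaceous glands. As given beside Gsta4, the summed sebaceous markers were lower in the same libraries, mostly through Scd1. The part of these glands in the Me1 values was not tested. None of the 4 superoxide dismutase and catalase genes passed in edgeR, DESeq2 or limma-voom, with 1 at an unadjusted edgeR p under 0.05, and Cat held 103 and 115 CPM.

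In the ATF4 list, 5 of 13 genes tested passed. Atf4 fell from 209 ± 54.5 to 99.1 ± 5.58 CPM (log2 fold change -1.15, adjusted p 0.00545 in edgeR, n = 3 each) and Atf3, a stress-induced factor, from 818 ± 61.3 to 252 ± 24.8 CPM (-1.77, edgeR adjusted p 0.000156), both in all 17 alternatives. Atf5 rose from 5.30 ± 0.434 to 23.1 ± 2.80 CPM (2.02, edgeR adjusted p 0.000729) in all 17, although its exons overlap Nup62 and Il4i1 on the other strand. Psat1, of serine synthesis, rose from 66.8 ± 12.4 to 113 ± 18.8 CPM (0.69, edgeR adjusted p 0.0344) in 11 of 17, and Chac1, described above, is the 5th. The count was 8 without control replicate 3, where 35.9% of all genes tested passed. It was 3 without any 1 of the other 5 libraries, where 3.15% to 7.55% of all genes tested did.

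**Figure D4:**
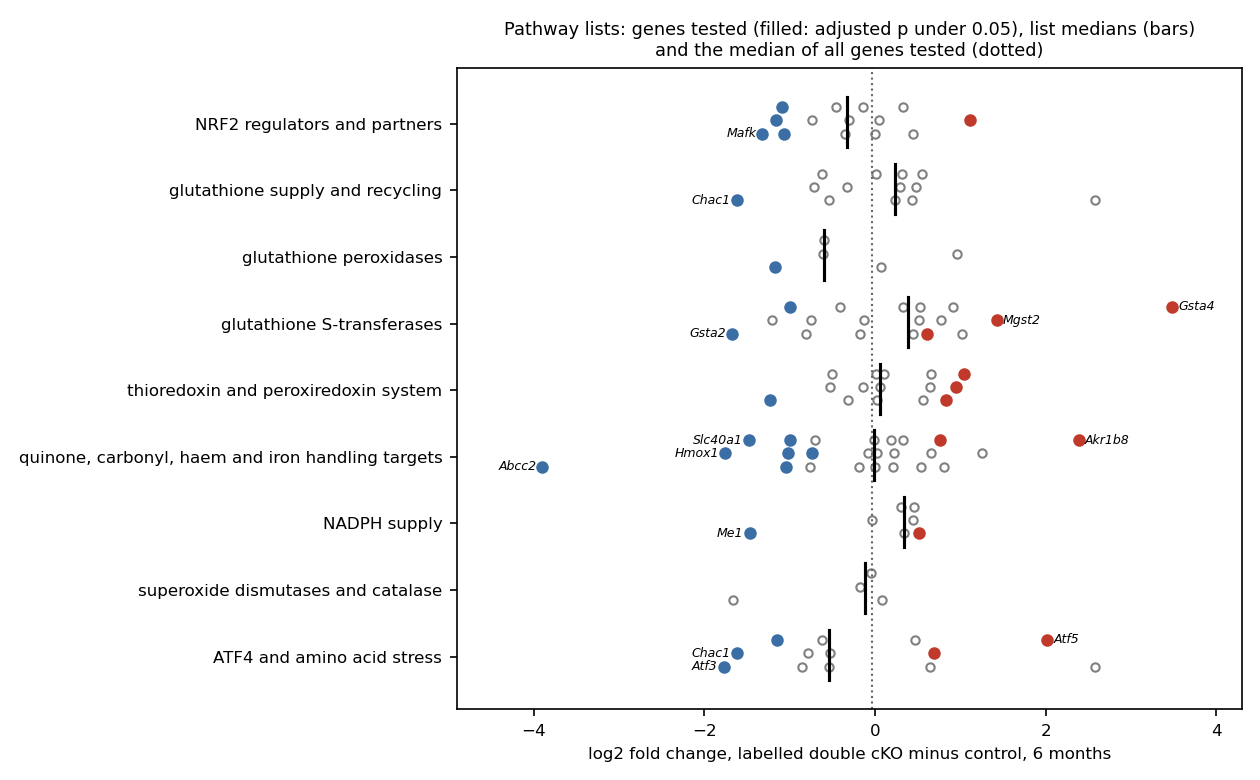
Log2 fold changes of the tested genes of each pathway list, cKO-labelled libraries minus controls at 6 months. Filled points passed an adjusted p of 0.05 (red higher, blue lower), black bars are list medians and the dotted line is the median of all genes tested, at -0.035. Medians run from -0.60 for the peroxidases to 0.39 for the glutathione S-transferases. Abcc2, at 0 to 3 counts in 1 group, is placed by its fitted value, which is no bound.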

How the data were processed

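Epidermal RNA libraries were compared, 3 labelled double cKO and 3 controls at 6 months; 2 libraries labelled Tfap2b cKO at 3 weeks are given as levels, and 13 files with every gene at 0 were left out. Per the submitters' processing notes, Trimmomatic 0.36, STAR 2.5.2b, featureCounts and Subread 1.5.2 were used, and the builds GRCh38 and GRCm38 are named. The values deposited by the authors are raw counts per Ensembl gene, without normalization. The strand setting and the treatment of reads that map to several genes were not given in the sources used here.

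Of 49315 identifiers, 49056 were matched to symbols and exons in GENCODE M21. CPM are counts scaled to a library total of 1000000. Tests used edgeR 4.0.16 in R 4.3.3 (filterByExpr, TMM, robust quasi-likelihood fit, prior count 2, Benjamini-Hochberg, threshold 0.05), on the 6 libraries without a block. On simulated counts, 135 of 189 genes changed 4-fold were called, none in the wrong direction. The simulation ran 17227 genes, so far fewer were changed than were called in the data. It held neither the background of control replicates 1 and 2 nor a control that stood apart. The share recovered therefore does not measure the sensitivity of the comparison at 6 months. The 17 alternatives include DESeq2 1.42.0 and limma 3.58.1. Pathway genes are named if called (at most 4 per list and direction, by adjusted p) or at 100 CPM or more in either group. Ftl1 and Blvrb, also called, are named besides. The members, lists and rules were chosen with earlier results of these data known.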

Additional observations from a re-analysis of the deposited data

Results flagged for a closer look

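Both items come from the 2 libraries labelled Tfap2b cKO at 3 weeks, which enter no test. In both, Hmox1 lay above every control at 6 months, and the lower of the 2 values was 139.7 CPM against a highest control value of 120.3 CPM. Srxn1 did so too, with a lower value of 24.8 CPM against a highest control value of 18.1 CPM. The ages differ, the controls of 3 weeks list 0 counts throughout, and neither difference was tested.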

How the results depend on the processing

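The count of genes past the threshold, 2637, was 4809 without a filter on low counts, 1548 with all libraries in one fit, 585 in the test against a fold change of 1.5, and 1729 with the replicate number as a block. Leaving out 1 library gave 668 (without double cKO replicate 1) to 7544 (without control replicate 3). Of the 10 genes, 4 passed. Without a filter on low counts 5 did, with Srxn1 added. The number was 2 in the test against a fold change of 1.5, 3 with the block, and 2 to 4 with 1 library left out (2 without double cKO replicate 1). The 4 without control replicate 2 were another set, with Nfe2l2 as a fall and without Keap1. The deviations of same-numbered samples from their group means had correlations of 0.028, -0.16 and -0.057, and those of different-numbered samples -0.11 to 0.17. Not every sample correlated best with its own number. With 3 samples per group, centred on their mean, these values cannot decide whether numbers mark a shared litter or batch, and the labels do not say. With the block, Hmox1 was -1.69 and lost its call (edgeR adjusted p 0.0709).

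Values near 0 changed sign, and the cause was not tested. Nqo1 was 0.0040 without a filter, and -0.29 to 0.26 over the fits with 1 library left out, and Gclm was -0.066 to 0.48. With at least 10 counts in every library, Bach1 was -0.036, Prdx1 -0.027 and Abcc1 -0.012. With the receptor background subtracted, Bach1 was -0.068, Prdx1 -0.062, Abcc1 -0.038, Nfe2l1 -0.021 and Gpx1 -0.0037. Bach1 was -0.0015 in limma-voom and -0.0029 with the block. Leaving out 1 library gave -0.055 to 0.11 for Bach1, -0.046 to 0.25 for Abcc1, -0.038 to 0.27 for Nfe2l1, -0.046 to 0.25 for Gpx1 and -0.14 to 0.38 for Cat. Slc7a11 has no value with at least 10 counts in every library. Genes such as Nqo1, Gsta4 and Slc7a11 rest on few counts in the controls, so small changes were not detectable at this depth.

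Among pathway genes whose libraries are not named above, leaving out control replicate 1 ended the calls of Gsto1, Prdx3, Psat1 and Aldh3a1, and leaving out control replicate 2 ended these and those of Maff, Bach2, Ptgr1 and Glrx. Without double cKO replicate 1 the calls of Maff, Bach2, Cbr1, Ptgr1, Gsto1, Prdx3, Glrx, Psat1 and Aldh3a1 were lost. Without replicate 2 those of Maff, Bach2, Gsto1, Prdx3, Glrx and Psat1 were lost, and without replicate 3 those of Bach2, Cbr1, Ptgr1, Gsto1, Prdx3, Glrx, Psat1 and Aldh3a1. Ggct and Abcc4 passed without control replicate 3, Prdx2 without double cKO replicate 2 and Txnip without double cKO replicate 3.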
